A study of Apostichopus japonicus with 3 samples.

Results

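Major yolk proteins and iron-binding proteins were followed in the respiratory tree of the sea cucumber Apostichopus japonicus through its summer dormancy. The members were isotig13120, isotig03531 and every other isotig (an assembled transcript of the reference transcriptome) whose best protein match contained the words major yolk protein, ferritin or transferrin. The rule found 6 of the 20991 isotigs with a read in any library. They were 4 major yolk protein isotigs, 1 melanotransferrin isotig and 1 isotig of an electron-transferring-flavoprotein dehydrogenase, which the rule caught only because the word transferring contains transferrin. No isotig with a read had ferritin in its match (0 of 20991), and none had transferrin receptor (0 of 20991).

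The respiratory tree is the branched organ in the body cavity through which the animal takes up oxygen. By the labels the groups differ in stage alone. They are called non-aestivation, deep aestivation and arousal, and when in the year each was sampled is not stated. Genotype, age and treatment are not stated. Each stage is 1 library made from poly(A) RNA, with no replicate. At least 15 individuals were used per stage, and how their tissue was combined is not stated. No marker list that defines the respiratory tree was available, so the tissue label was not checked against one. The libraries held 0.941, 0.887 and 0.963 times 1e6 uniquely assigned reads. Values are given throughout in the order non-aestivation, deep aestivation, arousal. One read on an isotig of 1000 bases was thus worth 1.06, 1.13 and 1.04 RPKM (reads per kilobase of isotig and per 1e6 assigned reads). Intervals are exact, at the 95% level, and reflect the counting of reads alone, not differences between animals. Every comparison is between libraries, and no p-value was computed. In whole tissue, fewer cells of a type and less RNA per cell cannot be told apart.

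Major yolk protein is a large glycoprotein of the transferrin family. In sea urchins it is made by both sexes, in the gut and in the nutritive cells of the gonad, circulates in the coelomic fluid, binds metal ions such as iron and zinc, and is stored as food for developing gametes. Transferrins carry ferric iron outside cells, and melanotransferrin is a relative that mammals anchor in the cell membrane. Ferritin, the cytosolic iron store, and the iron exporters and ferroxidases are the other arms of animal iron handling.

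Major yolk protein 1 (isotig13120, 3038 bases) was very abundant in non-aestivation and deep aestivation and far lower at arousal. It had 67076, 60653 and 1995 reads. These are 23455 RPKM (23278 to 23634), 22504 RPKM (22326 to 22684) and 681.9 RPKM (652.3 to 712.5). The first pair of stages lay close together, and the arousal library stood far below both. Its reads covered 99.74%, 99.74% and 99.64% of the isotig's bases. Even at arousal the isotig was read at a mean depth of 32.2 over its length, and by RPKM it ranked 169th among 1436 isotigs with at least 100 reads. In non-aestivation it ranked 4th of 1398 and in deep aestivation 5th of 1317.

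A second member of the family, major yolk protein 2 (isotig03531, 4407 bases), had 1348, 913 and 37 reads. That is 324.9 RPKM (307.8 to 342.8), 233.5 RPKM (218.6 to 249.2) and 8.72 RPKM (6.14 to 12.0). Arousal was again far below the other stages, and the 3 intervals lay apart.

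**Figure D1:**
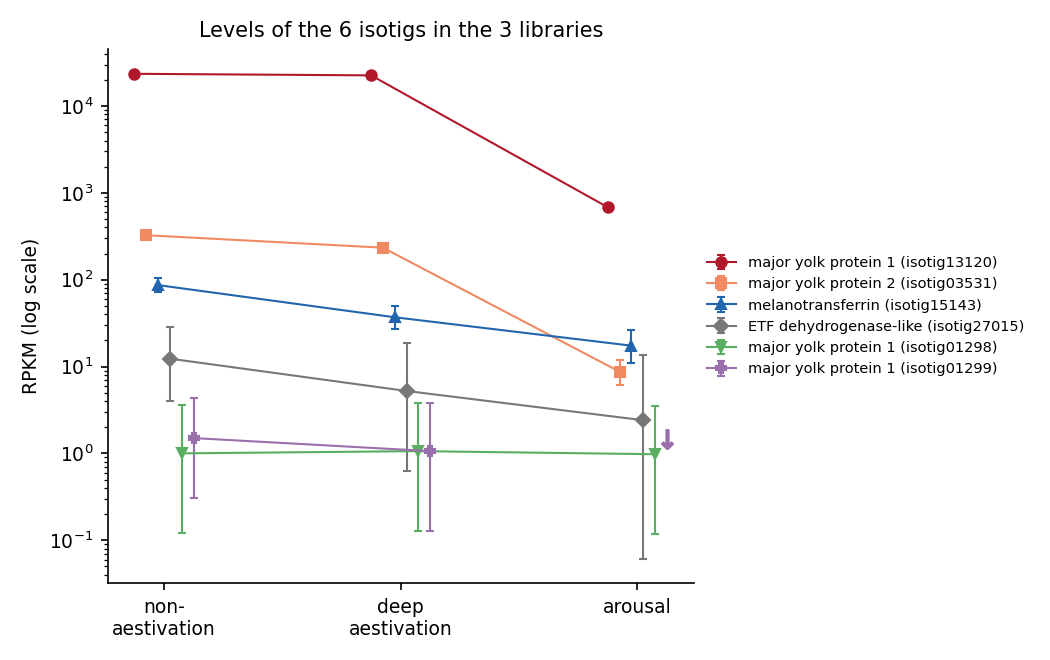
Level of each of the 6 isotigs (RPKM, log axis) in the 1 library of each stage. Bars are exact 95% Poisson intervals and the arrow marks 0 reads, drawn at the level 3 reads would give. Major yolk protein 1 (isotig13120) lay at 23455, 22504 and 681.9 RPKM, and major yolk protein 2 at 324.9, 233.5 and 8.72 RPKM.

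By these deposited values major yolk protein 2 was 72.2-fold, 96.4-fold and 78.2-fold lower than major yolk protein 1 in non-aestivation, deep aestivation and arousal. The coverage column changes how that gap can be read. The reads of isotig03531 covered 1.75% of its bases in every library, which is 77 of 4407 bases, whether there were 1348 reads or 37. Reads spread evenly would have covered 100% of the isotig in non-aestivation and deep aestivation, and 33.7% at arousal. Among 307 isotigs that reached at least 500 reads in a library, isotig03531 had the lowest covered share. The next lowest was isotig07280 with 8.27%, and the median was 96.4%.

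The deposited counts are of uniquely assigned reads, per the file headers. RPKM divides them by the whole isotig length, whatever part of the isotig received them. Whether the uncovered bases of isotig03531 are shared with another isotig was not tested, since the isotig sequences were not used here. Nor was it tested whether the 77 covered bases report the major yolk protein 2 transcript alone. Every value given here for major yolk protein 2, in text and figures, rests on those bases. Each read was 49 bases long, as shown by all 2192 isotigs with 1 read in non-aestivation, every one of which had 49 covered bases.

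Divided by covered bases instead of isotig length, the 2 major yolk proteins were close. The second then stood at 18598, 13365 and 499.0 reads per covered kilobase and per 1e6 reads, and the first at 23517, 22564 and 684.4. On this scale major yolk protein 2 was 79.1%, 59.2% and 72.9% of major yolk protein 1. If the 77 bases are 1 stretch, a read of 49 bases has 29 places to start in it, and per such start position major yolk protein 2 was 2.07-fold, 1.55-fold and 1.91-fold higher than major yolk protein 1. The gap between the 2 transcripts in non-aestivation, 72.2-fold in RPKM, thus differs with the length used, and so does which of them is higher. Both scales were added after the coverage had been seen. For isotig03531 the ratios between stages are the same on every scale, since its 77 covered bases were the same number in each library, and for isotig13120 the number varied only from 3027 to 3030.

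**Figure D2:**
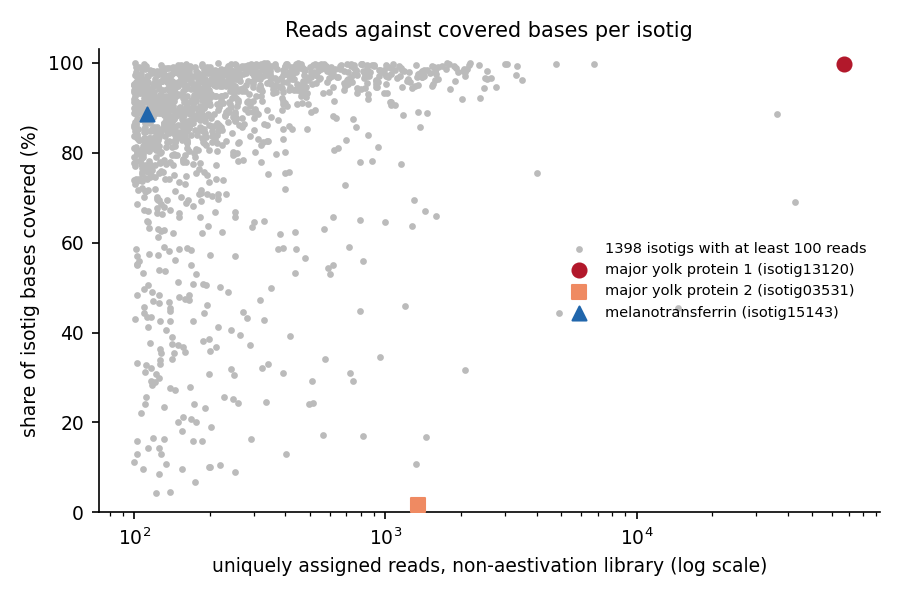
Share of isotig bases covered (percent) against uniquely assigned reads (log axis) for the isotigs with at least 100 reads in the non-aestivation library. Major yolk protein 2 lay at 1348 reads and 1.75%, major yolk protein 1 at 67076 reads and 99.74%, and melanotransferrin at 112 reads and 88.57%.

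**Figure D3:**
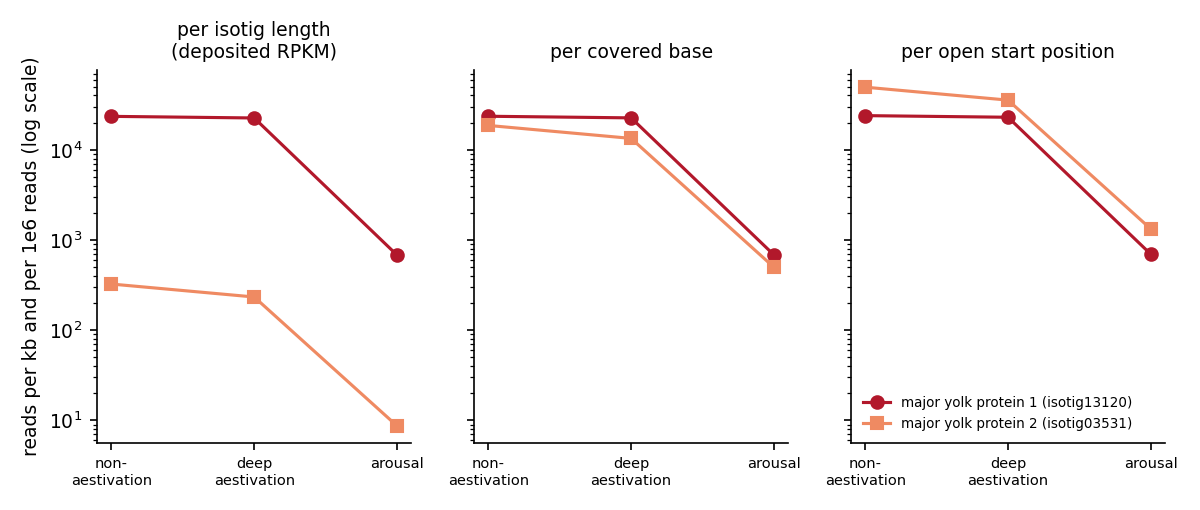
Level of the 2 main major yolk protein isotigs (log axis, reads per kilobase and per 1e6 reads) when the length is the whole isotig, the covered bases, or the start positions open to a read. In non-aestivation major yolk protein 2 was 1.39%, 79.1% and 207% of major yolk protein 1 on the 3 scales.

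The other major yolk protein isotigs, isotig01298 and isotig01299, are both 2123 bases long and both matched major yolk protein 1. They held almost no reads, with 2, 2 and 2 reads on isotig01298 and 3, 2 and 0 reads on isotig01299. Those few reads lay within 53 to 67 bases of each isotig. For the 0 reads at arousal the limit is given as the level of 3 reads, 1.47 RPKM, and not as an interval. Their levels could not be ordered at this depth. With unique counting a near-identical pair would lose its shared reads, but whether these isotigs are near-identical was not tested. Summed over the 3 isotigs of that name, major yolk protein 1 had 67081, 60657 and 1997 reads, hardly different from isotig13120 alone.

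Together the 4 major yolk protein isotigs took 7.27% of all reads in non-aestivation (7.22 to 7.32), 6.94% in deep aestivation (6.89 to 6.99) and 0.211% at arousal (0.202 to 0.221). Between deep aestivation and arousal the share of isotig13120 fell by 6.63 percentage points, more than that of any other isotig. The next, apolipoprotein B (isotig13070), fell by 0.438 points. The largest gains were on isotigs without a protein match, 1.71 points on isotig24195 and 1.22 on isotig22175. Since shares sum to the whole, such a loss raises every other share. With the 6 members left out of the totals, the median log2 ratio of arousal to deep aestivation over all isotigs compared moved by -0.10, and that of arousal to non-aestivation by -0.10.

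Melanotransferrin (isotig15143, 1374 bases) was lower at each later stage. It had 112, 45 and 23 reads. Its levels were 86.6 RPKM (71.3 to 104) in non-aestivation, 36.9 RPKM (26.9 to 49.4) in deep aestivation and 17.4 RPKM (11.0 to 26.1) at arousal. The 3 intervals did not overlap. Its reads covered 88.57%, 68.05% and 48.33% of the bases, against 98.2%, 79.9% and 56.0% for reads spread evenly, so its reads lay along much of the isotig. Per covered kilobase its levels were 97.8, 54.3 and 36.0, in the same order of stages but with smaller steps than in RPKM. At so few reads the covered share falls with the reads even when they are spread evenly. This scale therefore narrows the steps by construction and is no second estimate of them. Melanotransferrin was also the only member other than the flavoprotein dehydrogenase with gene ontology terms, among them transition metal ion binding and transport.

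The electron-transferring-flavoprotein dehydrogenase-like isotig (isotig27015, 431 bases) is no transferrin. The enzyme passes electrons from fatty acid oxidation to ubiquinone in mitochondria and holds an iron-sulphur cluster. It had 5, 2 and 1 reads, and its levels were 12.3, 5.23 and 2.41 RPKM. The upper limit of the arousal interval, 13.4 RPKM, lies above the non-aestivation level. No difference was detectable at this depth.

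The comparison of deep aestivation with non-aestivation asked how dormant animals differ from those not in dormancy. An isotig entered the comparison if its reads in the 3 libraries summed to 20 or more, which held for 10896 isotigs and 3 of the 6 members. It was called at a difference of 1 or more in log2(RPKM + 0.5), or 2-fold. Of the 3 members 1 was lower and 0 were higher. Among all isotigs compared 18.6% were lower and 13.1% higher, 31.7% in all, so 1 of 3 is near the background. These shares are 2029 isotigs lower and 1430 higher, and TMM factors give 1758 lower and 1667 higher. Melanotransferrin was the member that was lower, by 2.35-fold (1.65 to 3.39), a log2 ratio of -1.22. The reads of major yolk protein 2 were 1.39-fold lower (1.28 to 1.52). Major yolk protein 1 was 1.04-fold lower (1.03 to 1.05), a log2 ratio of -0.06, which became 0.05 with TMM factors and 0.06 with median-of-ratios factors. Its direction between these libraries thus depends on the scaling, which moves the median of all isotigs by 0.11 with both. The median log2 ratio of all isotigs compared was -0.12, that of the isotigs with a protein match -0.36, and that of the 3 members -0.48.

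The ratio of reads on the 2 main yolk isotigs does not depend on the scaling. Major yolk protein 2 had 2.01% as many reads as major yolk protein 1 in non-aestivation (1.90 to 2.12) and 1.51% in deep aestivation (1.41 to 1.61). These intervals lie apart. They take reads as independent, while those of major yolk protein 2 lie on 77 bases and carry no molecular identifiers, so the intervals may be too narrow. At arousal the value was 1.85% (1.30 to 2.57), an interval that reaches both of the others.

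The comparison of arousal with deep aestivation asked how aroused animals differ from dormant ones. All 3 of the members compared were lower at arousal, where 8.93% of isotigs were lower and 8.06% higher, 17.0% in all. Major yolk protein 1 was 33.0-fold lower (31.6 to 34.5), a log2 ratio of -5.04. For major yolk protein 2 the library at arousal was 26.8-fold lower (19.3 to 38.3), a log2 ratio of -4.67, so the intervals of the pair overlap. The value for major yolk protein 2 rests on reads from 77 of its 4407 bases. Melanotransferrin was 2.12-fold lower (1.26 to 3.68), a log2 ratio of -1.07 that lies just past the 2-fold line. Of 1864 isotigs with at least 100 reads in a library, 11 fell as far as major yolk protein 1 or further on this scale, itself included, which is 0.590%. For major yolk protein 2 the number was 13, or 0.697%.

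Arousal was then set against non-aestivation. The 3 members compared were again all lower, where 18.8% of isotigs were lower and 12.5% higher, 31.4% in all. Major yolk protein 1 was 34.4-fold lower (32.9 to 36.0), major yolk protein 2 37.3-fold lower (26.9 to 53.2) and melanotransferrin 4.98-fold lower (3.16 to 8.18). The arousal library serves both of these comparisons, and the deep aestivation library is part of both stage-to-stage comparisons, so they do not stand as separate evidence. The log2 ratios were -5.10, -5.14 and -2.28. Melanotransferrin thus reached its lowest level in 2 steps of similar size, while the major yolk proteins were at most 1.39-fold lower in deep aestivation and were 26.8-fold or more lower at arousal.

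**Figure D4:**
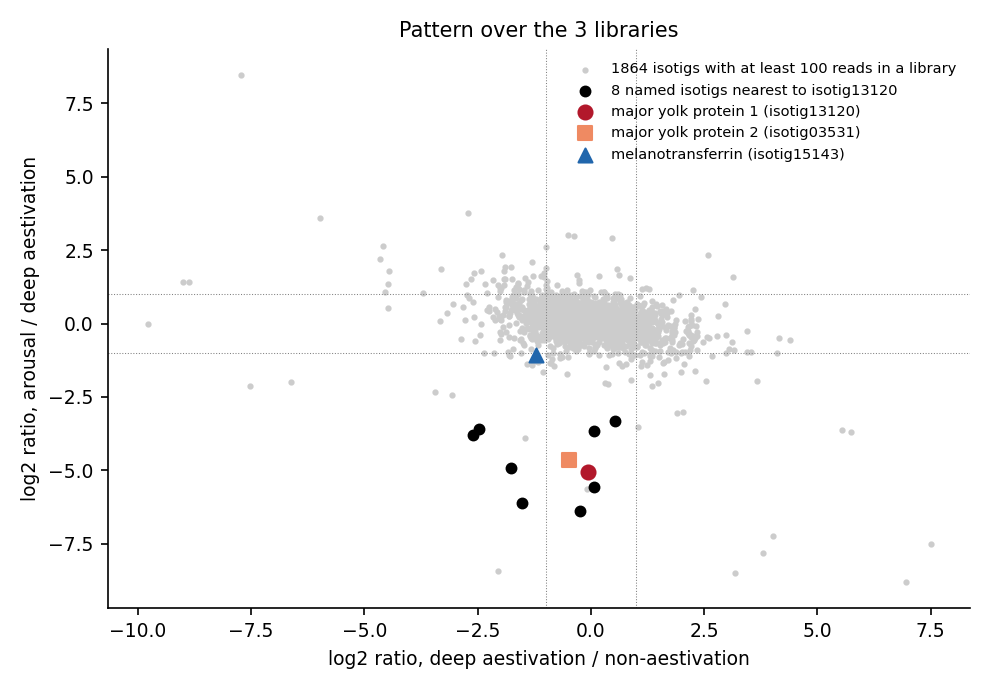
Log2 ratio of arousal to deep aestivation against log2 ratio of deep aestivation to non-aestivation for 1864 isotigs with at least 100 reads in a library; the axes share the deep aestivation library and dotted lines mark 2-fold. Major yolk proteins 1 and 2 lie at -0.06 and -0.48 on the horizontal axis and at -5.04 and -4.67 on the vertical axis, far below the bulk of isotigs.

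The isotigs most like major yolk protein 1 were sought by the Euclidean distance between these 2 log2 ratios, over the 3 libraries, among 1863 other isotigs with at least 100 reads in a library. Major yolk protein 2 (isotig03531) lay at a distance of 0.562, in position 2, and was in position 1 with a pseudocount of 0.1 and 3 with a pseudocount of 1. Its place rests on reads from 77 of its 4407 bases, and whether they report that transcript alone was not tested. Angiotensin-converting enzyme (isotig07116), a peptidase that trims peptide hormones in vertebrates, lay at 0.534 with 127, 126 and 1 reads. Its single read at arousal leaves its place to the pseudocount, with position 1 at 0.5 or 1 and position 4, at a distance of 1.59, at 0.1. The secreted protease ADAMTS7 (isotig13208) lay at 1.36 with 219, 174 and 1 reads, or at 2.20 with the pseudocount of 0.1, and a growth factor receptor 2 variant (isotig06516) at 1.38 with 436, 430 and 36 reads. An isotig with no protein match, isotig15975, lay at 0.602 and had 390, 349 and 7 reads. The basement membrane protein FRAS1 (isotig16081) lay at 1.72, a Kazal-type protease inhibitor (isotig18647) at 1.81 and a titin isotig (isotig01194) at 1.81. A second Kazal-type isotig (isotig13024) lay at 2.81 and hemicentin-1 (isotig17178), a matrix protein, at 2.82. FRAS1, both Kazal-type isotigs and hemicentin-1 were already over 2-fold lower in deep aestivation, which major yolk protein 1 was not.

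Isotigs of yolk and lipid carriers other than major yolk protein, and of their receptors, went in both directions. Vitellogenin is the yolk precursor of many other animals, and apolipoprotein B is the core of lipid-carrying particles. Of 18 isotigs that met the read minimum in the list of lipid carriers and their receptors, 5 were higher and 3 lower in deep aestivation, and 0 were higher and 2 lower at arousal than in deep aestivation. The 5 higher ones were named after low-density lipoprotein receptor-related proteins 4 and 6 (isotig12240, isotig20295, isotig26912, isotig22252) and an apolipoprotein A-I binding protein (isotig05535). These calls were thus on receptors and a binding protein by name, and not on carriers. Among all isotigs compared, 13.1% were higher and 18.6% lower in the first comparison, and 8.06% higher and 8.93% lower in the second. The list medians of 0.66 and -0.15 stand beside -0.12 and 0.00 over all isotigs compared. Apolipoprotein B (isotig13070) had 3006, 5258 and 1488 reads and stood at 505.0, 937.3 and 244.4 RPKM. It was 3.84-fold lower (3.62 to 4.07) at arousal than in deep aestivation, an interval far below those of both yolk proteins. An apolipophorin (isotig21150), the insect name for such a carrier, had 97, 121 and 63 reads and was the other isotig called lower. With TMM factors 7 isotigs of the 6 pathway lists together were higher and 5 lower in deep aestivation, in place of 5 and 6. With reads summed per protein name, 3 names were higher and 6 lower.

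The isotigs named after vitellogenin were picked out here after their values had been seen. An isotig matched to vitellogenin fused with superoxide dismutase (isotig14304) had 127, 72 and 60 reads, and a vit-1-like isotig (isotig17734) had 82, 28 and 22. Both had their larger step between non-aestivation and deep aestivation. A putative vitellogenin receptor-like isotig (isotig20845) had 215, 66 and 114 reads and was 3.07-fold lower in deep aestivation. Among the isotigs of the list that met the read minimum, the widest changes besides that of apolipoprotein B were those of a low-density lipoprotein receptor-related protein 2-like isotig (isotig23226), an endocytic receptor, with 71, 14 and 21 reads, and of an apolipoprotein A-I binding protein-like isotig (isotig05535) with 2, 8 and 11 reads.

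Iron transport and ferroxidase isotigs passed 2-fold in neither step from stage to stage. Of 4 that met the read minimum, 0 were called in deep aestivation against non-aestivation and 0 in arousal against deep aestivation. Of all isotigs compared, 31.7% and 17.0% were called in these comparisons. Ferric-chelate reductase 1 (isotig14150), which reduces ferric iron, had most reads, 195, 120 and 161. A second ferric-chelate reductase isotig (isotig23122) had 88, 122 and 81 reads. Hephaestin (isotig08433), a ferroxidase that works with iron export in mammals, had 47, 71 and 122 reads and was 2.54-fold higher at arousal than in non-aestivation, the reverse of the members' direction. Hephaestin-like protein 1 (isotig25012) had 40, 20 and 31 reads. The isotig named after the divalent metal transporter (isotig25346), the iron importer, had only 6, 1 and 0 reads.

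Among iron regulation and iron-sulphur isotigs, 2 of 4 were lower in deep aestivation and 0 were higher, beside 18.6% lower and 13.1% higher among all isotigs compared. With TMM factors 1 of the 4 was lower. None of them (0 of 4) was called between deep aestivation and arousal. The 2 isotigs were mitochondrial aconitases, iron-sulphur enzymes of the citric acid cycle. Aconitase 2 (isotig17219) had 193, 86 and 74 reads, a log2 ratio of -1.08 in deep aestivation that TMM scaling puts at -0.96, inside the 2-fold line. Aconitate hydratase (isotig15201) had 135, 54 and 73 reads and was 2.36-fold lower. Nuclear receptor coactivator 4, which in mammals delivers ferritin for breakdown, had 9, 8 and 5 reads over 3 isotigs.

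No heme enzyme passed 2-fold. Of 4 isotigs 0 were called in any of the 3 comparisons, where 31.7%, 17.0% and 31.4% of all isotigs compared were called. Aminolevulinate synthase (isotig15916), the first enzyme of heme synthesis, had 47, 44 and 61 reads, coproporphyrinogen oxidase (isotig19856) 19, 21 and 17, protoporphyrinogen oxidase (isotig18526) 9, 8 and 6, and uroporphyrinogen III synthase (isotig25132) 7, 9 and 10. At these counts only large differences could have been seen. Globin-1 (isotig10698) had 15, 12 and 12 reads, and the other isotig in the globin list (isotig22461) was a globin-inducing factor by name, with 13, 15 and 10. Of 6 zinc and copper isotigs 1 was lower in deep aestivation, the zinc transporter SLC39A7 (isotig20684), with 76, 16 and 29 reads, and 0 were called between deep aestivation and arousal. In deep aestivation 18.6% of all isotigs compared were lower, so 1 of 6 is near the background.

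**Figure D5:**
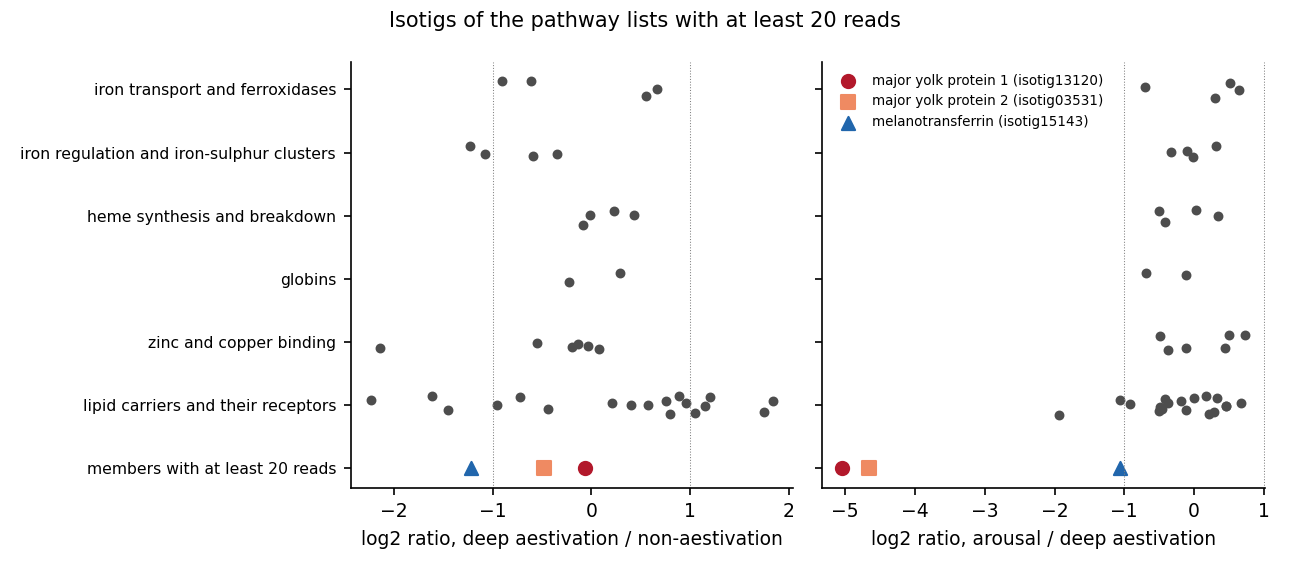
Log2 ratios of the isotigs in each pathway list that met the read minimum and of the 3 members compared. Dotted lines mark 2-fold and each point is 1 isotig. At arousal against deep aestivation the 2 major yolk proteins lie at -5.04 and -4.67, and of all 38 list isotigs 2 were past 2-fold, apolipoprotein B and an apolipophorin. Among all isotigs compared 17.0% were past 2-fold there.

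Major yolk protein is known from gonad, gut and coelomic fluid, so markers of those tissues were read beside it. Among all isotigs compared, 18.6% were lower and 13.1% higher in deep aestivation. At arousal against deep aestivation 8.93% were lower and 8.06% higher. The counts below stand beside these shares. The germ cell and gonad list summed to 156, 30.4 and 24.9 reads per 1e6 reads over 9 isotigs, and no isotig was named vasa, piwi, nanos or boule. Of its 4 isotigs compared, 2 were lower in deep aestivation, and at arousal against deep aestivation 1 was higher and 1 lower, the latter an egg bindin receptor (isotig19066) with 13, 10 and 5 reads. The higher one (isotig13498) went only from 0 reads to 1. For both of these isotigs the interval of the ratio includes equal rates. The sperm protein bindin (isotig16157) had 61, 0 and 0 reads, and synaptonemal complex protein 1 (isotig13498) had 23, 0 and 1. A further egg bindin receptor (isotig05583) had 16, 9 and 12 reads. No marker of the gonad's nutritive cells was fixed, and whether gonad tissue was a source of the yolk reads was not tested. The gut list summed to 2414, 3163 and 4768 reads per 1e6, most of it on a trypsin-like serine protease (isotig13602) with 1808, 2433 and 4306 reads. Next came anionic trypsin-1 (isotig13029) with 362, 160 and 117 reads, 3.17-fold lower at arousal than in non-aestivation. Of the 7 gut isotigs compared, 4 were higher and 1 lower in deep aestivation, and 0 were higher and 1 lower at arousal against deep aestivation, with a median log2 ratio of -0.36. Inter-alpha-trypsin inhibitors, caught by their name, made up 5 of the 12 isotigs, among them isotig04207 with 8, 26 and 19 reads and isotig21059 with 18, 35 and 18. Both of these and a further inhibitor, isotig04208, were among the 4 isotigs higher in deep aestivation. The remaining one was carboxypeptidase A-like (isotig13961), with 48, 120 and 101 reads. The 1 isotig lower at arousal was the inhibitor isotig21059, so no digestive enzyme of the list was called there. The coelomocyte list summed to 4433, 3385 and 3071 over 32 isotigs, and of 20 compared 2 were higher and 7 lower in deep aestivation, and 1 higher and 0 lower at arousal against deep aestivation. Complement C3 (isotig13167) had 1588, 1813 and 1582 reads, and complement component 3-2 (isotig29329) had 741, 130 and 138. Among the scavenger receptors of this list isotig05114 had 52, 23 and 58 reads and isotig19834 had 58, 11 and 8. The muscle list, for the wall of the organ, summed to 3084, 2563 and 2091 over 33 isotigs. Of 17 compared 1 was higher and 4 lower in deep aestivation, and 2 were higher and 1 lower at arousal against deep aestivation. Titin (isotig13411) had 762, 1101 and 809 reads, myosin heavy chain (isotig06040) 1198, 431 and 501, and a second titin isotig (isotig13925) 23, 3 and 7. A further titin isotig, among those most like major yolk protein 1 (isotig01194), had 127, 174 and 18. The part of these cell types in the change at arousal was not tested.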

How the data were processed

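Respiratory tree RNA of 3 stages, 1 library each, was analysed. Per the labels' protocols, mRNA captured with oligo(dT) was fragmented and copied from random hexamers, with no step described that keeps strand, so antisense reads cannot be separated. CASAVA 1.5 is named in the submitters' processing notes. The alignment program is not given in the sources used. The authors deposited counts of reads aligned to a single isotig of a published reference transcriptome, isotig length, coverage as the percent of bases covered, and RPKM, per the file headers. All 55048 deposited RPKM values matched those recomputed from the counts within 1e-09. The isotig names could not be joined to the reference gene table, so genome positions are left out.

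Isotigs that a library's table does not list count as 0 reads there. Log2 ratios used a pseudocount of 0.5, which understates changes of rare isotigs. Ratios of read rates have conditional binomial (Clopper-Pearson) intervals, levels Poisson and shares Clopper-Pearson intervals. Since the reads carry no molecular identifiers, they are not independent molecules. With 1 library per stage, 3 stages allow no test.

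The members and lists were chosen with earlier results of these data known. Members with at least 100 reads, and per pathway or cell type list the isotig with most reads and that with the largest change per comparison (at least 20 reads), were named, plus the 8 named isotigs most like isotig13120. Alternatives were pseudocounts 0.1 and 1, a minimum of 100 reads or none, TMM (edgeR 4.0.16), median-of-ratios (DESeq2 1.42.0), totals without the 10 leading isotigs, an interval criterion and sums per protein name. Those on covered bases, on totals without the members and on the pseudocount behind the likeness were added after the data had been seen. Python 3.11.15 and R 4.3.3 were used.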

Additional observations from a re-analysis of the deposited data

How the results depend on the processing

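The members' calls kept their number and direction under both pseudocounts, at least 100 reads, TMM, median-of-ratios, totals without the 10 leading isotigs or without the members, the interval criterion and sums per protein name. Without a filter on low counts, 2 members were lower in deep aestivation, 4 at arousal against deep aestivation and 5 at arousal against non-aestivation, the added ones being isotig27015 and isotig01299 with their few reads. Without that filter the pathway lists together had 23 calls in place of 11 in deep aestivation, 13 in place of 2 at arousal against deep aestivation and 24 in place of 13 at arousal against non-aestivation. The share of all isotigs called without the filter was not computed, so these member and list counts have no background beside them. Without the 10 leading non-member isotigs in the denominator, major yolk proteins took 8.36%, 8.34% and 0.266% of the reads in non-aestivation, deep aestivation and arousal. Over all alternatives the log2 ratio of arousal to deep aestivation ranged from -5.14 to -5.04 for isotig13120, from -4.77 to -4.59 for isotig03531 and from -1.16 to -1.04 for melanotransferrin. With TMM, 6 calls in the pathway lists changed side, among them apolipoprotein B (isotig13070), whose log2 ratio of arousal to non-aestivation went from -1.05 to -0.93. No paired analysis was possible because each stage has 1 library. Depth limits the isotigs with few reads, among them the flavoprotein dehydrogenase and isotig01298 and isotig01299.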

Other observations

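Cubilin is an endocytic receptor that in mammals takes up transferrin and other proteins, and its isotigs were looked at only after values of some of them had been seen. Of 5 cubilin-named isotigs with at least 20 reads, 5 were lower at arousal than in deep aestivation, where 8.93% of all isotigs compared were lower. Whether these isotigs are parts of 1 transcript was not tested, so they cannot be counted as 5 separate observations. In deep aestivation against non-aestivation 1 of the 5 was lower, where 18.6% of all isotigs compared were lower. The isotig with most reads (isotig25069) had 333, 127 and 52 reads in non-aestivation, deep aestivation and arousal. A second (isotig13982) had 89, 109 and 28, and was 4.23-fold lower (2.77 to 6.65) at arousal than in deep aestivation. The widest change was on isotig14562, with 17, 12 and 1 reads. The 7 cubilin isotigs summed to 511, 324 and 102 reads per 1e6 reads.

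Isotigs with iron in their gene ontology terms were also listed after the data had been seen. Among all isotigs compared, 8.93% were lower and 8.06% higher at arousal than in deep aestivation. Of 19 isotigs annotated with iron ion binding, 1 was lower and 0 higher in that comparison, with a median log2 ratio of -0.34. The most abundant of them, mitochondrial cytochrome c oxidase subunit 1 (isotig07060), had 4914, 6802 and 7113 reads. Dual oxidase-A (isotig13477), which makes hydrogen peroxide with a heme group, had 1870, 2705 and 3690 reads. Cytochrome c (isotig17336) had 167, 58 and 64 reads, and a tartrate-resistant acid phosphatase (isotig17828) 5, 19 and 10. Of 28 isotigs annotated with iron-sulphur cluster binding, 19 met the read minimum, both aconitases included. Among these 8 were lower and 1 higher in deep aestivation against non-aestivation, with a median of -0.97, beside 18.6% lower and 13.1% higher among all isotigs compared. One of the 8, aconitase 2 (isotig17219), is inside 2-fold with TMM factors, at -0.96. Of the 19, 1 was lower and 0 were higher at arousal than in deep aestivation. The isotig with most reads, a CDGSH iron-sulphur domain protein (isotig14645), had 168, 277 and 256. A xanthine dehydrogenase-like isotig (isotig22825) had 35, 3 and 1 reads.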
